A study of Mus musculus with 12 samples.

Results

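Immediate early genes are transcribed within minutes of synaptic activity from transcription factors that are already present in the neuron, chiefly CREB, SRF and MEF2, which are switched on by calcium entry and by the MAP kinase cascade. Their products include transcription factors such as FOS, EGR1 and NPAS4, which drive a later wave of genes, and proteins that act directly at the synapse, such as ARC. In the hippocampus they are used as markers of recent neuronal activity and are needed for lasting plasticity and memory, and their mRNAs decay quickly, so that a level in frozen tissue reflects the time shortly before death. A list of 39 activity-regulated genes, called immediate early genes below, was followed by name in RNA-seq libraries of mouse hippocampus. Whether each of them has the fast induction and decay described above was not tested. All 39 had more than 20 counts in total and were among the 22592 genes tested.

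The study asked whether a brief treatment with Nutlin-3, a small molecule inhibitor of the p53 ubiquitin ligase MDM2, has a lasting effect in *Fmr1* KO mice, a model of fragile X syndrome. Wild-type (WT) and *Fmr1* KO (*Fmr1* -/y) male mice on a C57B/L6 background received Nutlin-3 (Nut3) or its vehicle (Veh) by injection at 2 months of age, and the hippocampus was collected at 6 months. The 12 libraries were 3 of WT-Veh (animals RH2, RH5 and RH15), 3 of WT-Nut3 (RH1, RH9 and RH14), 3 of KO-Veh (RH7, RH10 and RH16) and 3 of KO-Nut3 (RH6, RH8 and RH13), each from poly(A) RNA of whole hippocampus. The deletion in the KO mice is constitutive, and the libraries hold all cell types of the dissected tissue. *Fmr1*, the deleted gene, was at 74.0 to 79.5 CPM in the 6 WT libraries and at 28.5 to 37.3 CPM in the 6 KO libraries, so that every library stood with its label and the KO libraries kept part of the reads. CPM, the unit of all levels, are counts scaled to a common library size with TMM factors. The KO libraries were lower by a log2 fold change of -1.22 ± 0.06 (SE, n = 6 per side; edgeR quasi-likelihood test, Benjamini-Hochberg adjusted *P* = 1.71e-08).

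Reads counted on genes ranged from 17150820 in WT-Veh RH2 to 20040482 in WT-Nut3 RH9. Neuronal markers were present in every library, with *Camk2a*, the most abundant of 7 pan-neuronal markers, at 2754 to 4861 CPM. Some libraries stood apart in markers of other tissue. The summed level of 15 choroid plexus markers reached 5179, 671 and 7156 CPM in KO-Nut3 RH6, RH8 and RH13 and 6694 CPM in WT-Nut3 RH9, and 155 to 223 CPM in the other 8 libraries. *Ttr*, transthyretin, was the most abundant of these markers over the 12 libraries together. It was at 3091, 314 and 4520 CPM in the KO-Nut3 libraries, at 4215 CPM in WT-Nut3 RH9 and at 3.15 to 18.2 CPM elsewhere. In those other 8 libraries most of the sum came from other markers. KO-Nut3 RH6 was also the lowest library in the sum of the 7 neuron markers, at 7177 CPM against 9111 to 10607 CPM in the others. In the same library 10 markers of CA pyramidal neurons summed to 897 CPM against 1181 to 1394 CPM, and 6 thalamus markers to 178 CPM against 83.3 to 109 CPM. The part of these differences in tissue in the results below was tested only as far as the fits with a marker score and without RH6 go.

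The immediate early genes spanned a wide range of abundance. Divided by the exonic length of the gene, the mean level over the 12 libraries was highest for the secreted neuropeptide precursor *Vgf* with 75.1 CPM per kb, the granin *Scg2* with 66.6 CPM per kb and *Arc* with 57.9 CPM per kb. *Plk2*, a kinase of synaptic homeostasis, followed with 43.5 CPM per kb and *Jun* with 37.5 CPM per kb. The lowest were *Atf3*, a stress-induced bZIP factor, with 0.553 CPM per kb, the small Maf protein gene *Maff* with 0.618 CPM per kb and *Egr2* with 1.12 CPM per kb. *Maff* had 9 counts in its lowest library and *Arc* had 1536, so the rare members carry much more counting error than the abundant ones.

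How strongly a gene varied between animals differed as widely. Over the 12 libraries *Fos*, the prototype AP-1 factor, went from 5.91 CPM in WT-Veh RH2 to 32.1 CPM in KO-Veh RH16, a ratio of 5.43. *Egr2*, a zinc-finger factor of low abundance, had a ratio of 9.60 between the same libraries, from 0.896 to 8.60 CPM. *Npas4*, a neuron-specific factor induced by calcium entry, had a ratio of 3.85 and *Arc* one of 2.95. At the other end, *Jund* had a ratio of 1.21, *Rgs2*, a brake on G protein signalling, one of 1.22 and *Vgf* one of 1.29. The median SD of log2 CPM over the 12 libraries was 0.25 for the 35 members with a mean of at least 5 CPM and 0.12 for the 11909 genes above that level.

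**Figure D1:**
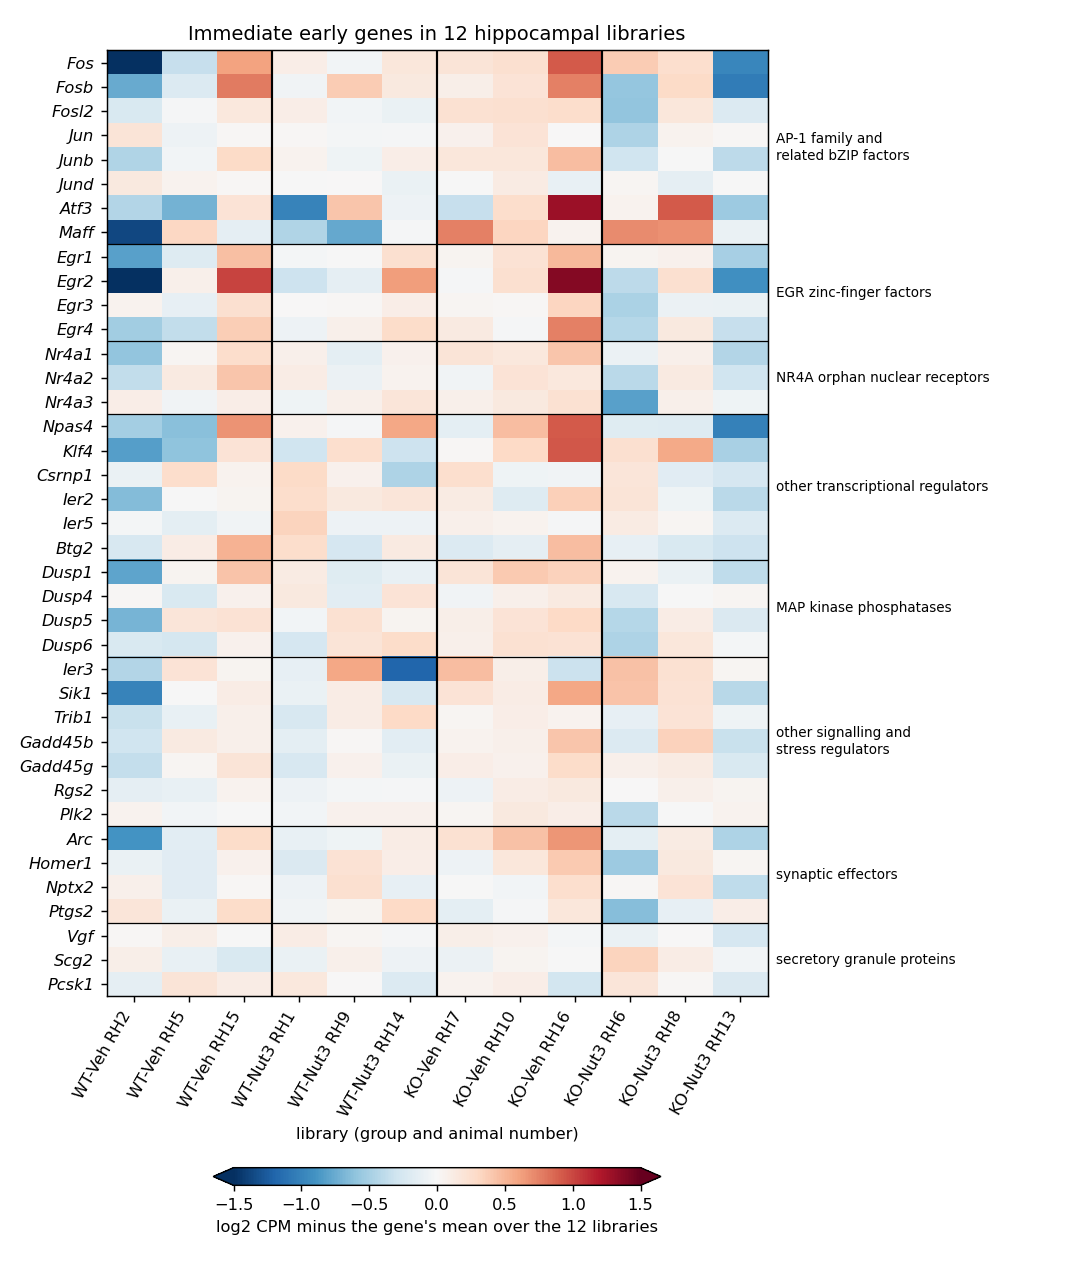
Level of the 39 immediate early genes (rows, by role) in the 12 libraries (columns, by group), as log2 CPM minus the mean of the gene over the 12 libraries. KO-Veh RH16 held the highest value of 21 genes and WT-Veh RH2 the lowest value of 16 genes.

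Many of the members varied together from animal to animal, while others did not follow. KO-Veh RH16 was the highest library for 21 of the 39 genes, and WT-Veh RH2 was the lowest for 16, KO-Nut3 RH6 for 10 and KO-Nut3 RH13 for 7. The mean of the 39 centred log2 levels was 0.34 in KO-Veh RH16, 0.21 in WT-Veh RH15 and 0.14 in KO-Veh RH10, and at the other end -0.40 in WT-Veh RH2 and -0.29 in KO-Nut3 RH13. The second highest and the lowest of these means thus both lay in WT-Veh. WT-Veh had the widest spread, with a mean of -0.09 ± 0.30 (SD, n = 3), and WT-Nut3 the narrowest, with 0.00 ± 0.04 (SD, n = 3). KO-Veh had 0.19 ± 0.14 and KO-Nut3 -0.10 ± 0.21 (SD, n = 3 each). The first principal component of the 39 genes held 61.5% of their variance and the second 15.04%, and the genes that varied most weigh most in these shares. Gene by gene the relation was looser. Over all 741 pairs of members the median Pearson *r* was 0.34 over the 12 libraries and 0.29 after the mean of each group was subtracted, and 78.0% and 71.1% of the pairs had an *r* above 0.

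Some genes shared this movement closely. Over the 12 libraries the log2 level of *Arc* had a Pearson *r* of 0.97 with the mean of the other 38 genes, *Junb* one of 0.94, *Egr1* and *Nr4a1* one of 0.93 each, and *Egr2* and *Fosb* 0.93 and 0.92, while *Homer1*, *Egr3* and *Nr4a3* had 0.55, 0.49 and 0.33. After the mean of each group was subtracted, *r* was 0.97 for *Arc*, 0.96 for *Junb*, 0.93 for *Egr1* and 0.90 for *Nr4a1*, so for these genes the shared movement was present between animals of the same group. In all, 13 genes had an *r* of at least 0.8. Another 8 genes had an *r* under 0.2, among them *Jun* with 0.04, *Ptgs2*, which encodes the prostaglandin synthase COX-2, with 0.11, *Pcsk1*, a prohormone convertase, with 0.02, *Scg2* with -0.27 and *Jund* with -0.51. These values describe 12 libraries that share the TMM scaling and the differences in tissue given above. *Jund* also shares 52.6% of its exonic bases with a gene on the opposite strand, and reads there were not counted on either gene.

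**Figure D2:**
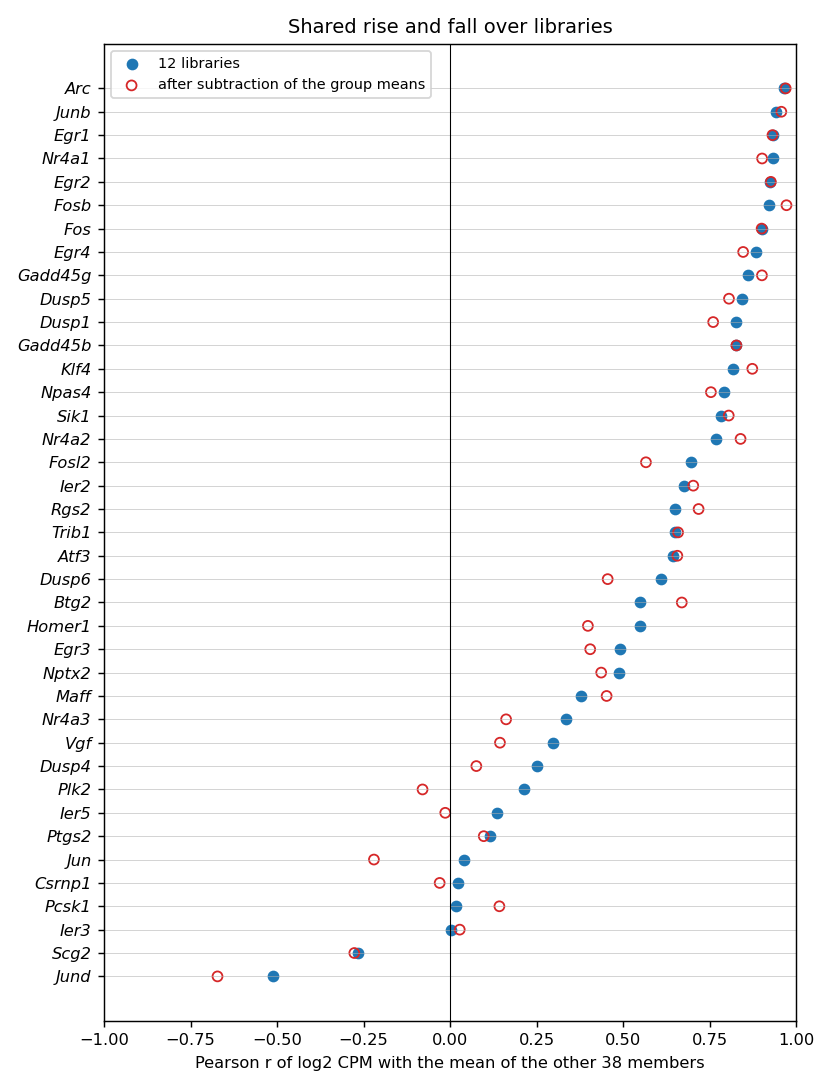
Pearson *r* of the log2 CPM of each immediate early gene with the mean of the other 38 genes, over 12 libraries (filled) and after subtraction of the group means (open). *Arc* stands at the top with 0.97 and *Jund* at the bottom with -0.51.

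Among 6 genes followed in every library, *Arc*, *Fos*, *Egr1*, *Npas4*, *Nr4a1* and *Nptx2*, correlations were computed for all 15 pairs over the 12 libraries, which span the 4 groups. The 10 pairs without *Nptx2* had a Pearson *r* of 0.77 to 0.97. *Fos* and *Egr1* had *r* = 0.97 (permutation *P* = 3e-05, adjusted over 15 pairs 0.00015) and a Spearman rho of 0.87 (permutation *P* = 0.0005, adjusted 0.0025), and without the 2 libraries farthest from the median of *Fos* *r* was 0.89. *Arc* and *Egr1* had *r* = 0.94 (permutation *P* = 2e-05, adjusted 0.00015) and rho = 0.92 (permutation *P* = 8e-05, adjusted 0.0012), and without the 2 libraries farthest from the median of *Arc* *r* was 0.85. *Npas4* followed less closely, with *r* = 0.79 to *Arc* (permutation *P* = 0.0024, adjusted 0.0039; rho = 0.80, permutation *P* = 0.0025, adjusted 0.0053; *r* = 0.80 without the 2 farthest libraries). *Nptx2*, which encodes a secreted pentraxin that clusters AMPA receptors, had an *r* of 0.32 to 0.47 with the other 5 genes, and none of these 5 relations passed (permutation *P* from 0.12 to 0.31). Without the 2 farthest libraries these values were between -0.14, for *Npas4*, and 0.49, for *Fos*.

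Promoter sequence was searched for the elements bound by CREB, by SRF and by the EGR factors themselves. RefSeq start sites (GRCm38.p6) were given for 30 of the 39 genes, with 40 starts. The 5 letters TGACG, the half-site of the cAMP response element (CRE) that CREB binds, searched on both strands (so that CGTCA also counts), were found in the 250 bases before at least 1 start of 21 of the 30 genes (70%). The same letters were found before 17.8% of all 32851 promoters and for 19.8% of all genes in the table. The full palindrome TGACGTCA, which contains the half-site on both strands, was found for 6 members, *Btg2*, *Dusp1*, *Maff*, *Pcsk1*, *Plk2* and *Scg2* (20%), and for 1.77% of all genes in the table. A CArG box, the element bound by SRF, was found for *Egr2* and *Dusp5*, and for 1.62% of all genes. The EGR motif GCGNGGGCG, on either strand, was found for 9 members (30%), among them *Nr4a1*, *Nr4a2*, *Fosb* and *Klf4*, and for 5.33% of all genes. A match describes letters and is no evidence of binding.

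The stretches with these letters are shown for members of the group that varied together and for 1 member that did not, with the half-sites in capitals and each sequence written in the direction of transcription. *Fos* (chr12:85473749-85473840, plus strand) has 2, *Fosb* (chr7:19310089-19310117, minus) and *Junb* (chr8:84978838-84978866, minus) have 1 each, *Nr4a1* (chr15:101266765-101266822, plus) has 2 in the stretch shown and 4 in its 250 bases, *Npas4* (chr19:4990124-4990162, minus) has 2 and *Dusp1* (chr17:26508596-26508675, minus) has a half-site and the full element. *Scg2* (chr1:79440075-79440106, minus) has the full element and was among the genes with the lowest *r*. The last line gives *Dusp5* (chr19:53529051-53529094, plus) with its 2 adjoining CArG boxes in capitals.
Fos: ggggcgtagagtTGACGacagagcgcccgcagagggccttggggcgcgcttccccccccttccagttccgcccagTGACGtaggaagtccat
Fosb: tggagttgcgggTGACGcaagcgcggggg
Junb: gcttcctgacagTGACGcgagccgcctcc
Nr4a1: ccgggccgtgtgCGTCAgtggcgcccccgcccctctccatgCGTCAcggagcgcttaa
Npas4: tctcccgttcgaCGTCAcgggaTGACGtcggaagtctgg
Dusp1: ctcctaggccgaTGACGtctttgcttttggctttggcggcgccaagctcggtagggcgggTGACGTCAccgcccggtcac
Scg2: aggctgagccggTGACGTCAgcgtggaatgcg
Dusp5: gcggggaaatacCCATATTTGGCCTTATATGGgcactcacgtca

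In the reported fits, Nutlin-3 against vehicle in KO mice was the comparison with the most members on one side. The lead was narrow, since 34 leaned one way in KO against WT after vehicle and in the interaction of genotype and treatment. It did not hold in every fit, since 32 were lower here without KO-Nut3 RH13. Of the 39 genes 35 were lower in KO-Nut3, and their median log2 fold change to KO-Veh was -0.26, while over all genes tested 49.2% were lower and the median was 0.00. Since many members varied together between animals, such counts of members, here and in the other comparisons, are not counts of independent observations. The mean of the 39 centred levels overlapped between the groups, with 0.12 in KO-Nut3 RH8 and 0.07 in KO-Veh RH7. None of the 39 passed the threshold of an adjusted *P* under 0.05 in edgeR, which 45 genes or 0.199% of those tested did. DESeq2 called 2, *Junb* and *Arc*, among 245 genes or 1.08% of all, and limma-voom 0 among 19 genes or 0.0841%. At an unadjusted *P* under 0.05 in edgeR, 12 members were lower and 0 higher, against 7.60% of all genes. In 7 members the 3 KO-Nut3 libraries lay entirely below the 3 KO-Veh libraries, against 5.44% of all genes, and in 0 members entirely above, against 7.85%. In bulk tissue, fewer cells of a type and less RNA per cell cannot be told apart. Several cell type marker lists leaned to one side in the same comparison. Of the markers of CA pyramidal neurons 9 of 10 were lower with a median of -0.20, of dentate granule neurons 8 of 10 with a median of -0.12 and of all neurons 6 of 7 with a median of -0.12, while those of inhibitory neurons were 4 lower and 4 higher. Higher were 15 of 15 markers of choroid plexus with a median of 4.71, 8 of 9 of fibroblasts with a median of 1.37, 7 of 7 of mural cells with a median of 0.40, 7 of 7 of oligodendrocytes with a median of 0.21, 6 of 6 of thalamus with a median of 0.37, 5 of 5 of blood with a median of 0.42 and 5 of 7 of endothelium with a median of 0.22. All 7 markers of microglia were lower with a median of -0.07, and those of cortex, striatum and astrocytes were split. In edgeR 4 choroid plexus markers passed the threshold, *Ttr*, *Folr1*, *Slc4a5* and *Tmem72*, and 0 of the other lists named here. The part of the fibroblast, vascular, blood and glial markers in the values of the members was not tested.

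**Figure D3:**
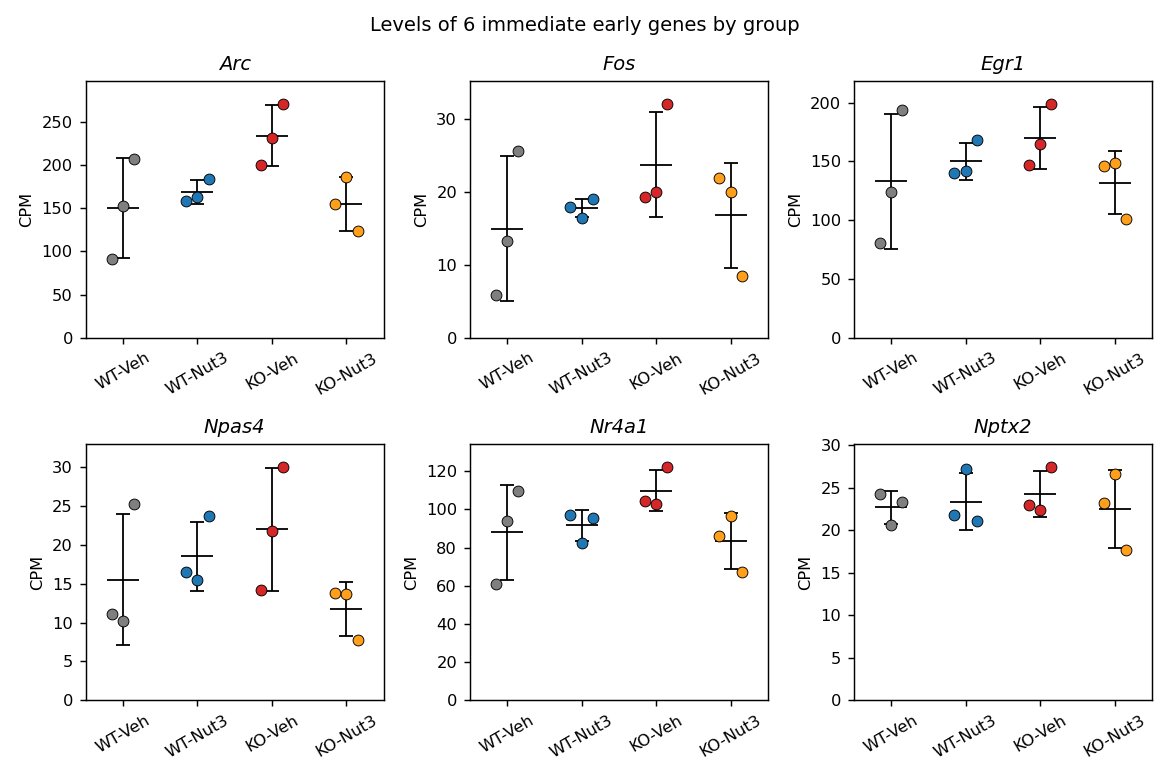
CPM of *Arc*, *Fos*, *Egr1*, *Npas4*, *Nr4a1* and *Nptx2* in each library by group; bars are mean ± SD of 3 libraries and every axis starts at 0. *Arc*, *Npas4* and *Nr4a1* in KO-Nut3 lay below every KO-Veh library, and the other 3 genes overlapped.

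*Arc*, whose product acts in AMPA receptor endocytosis (ENSMUSG00000022602, chr15:74669083-74672570, GRCm38), was at 201, 232 and 270.5 CPM in KO-Veh and at 155, 187 and 123 CPM in KO-Nut3. All 3 KO-Nut3 libraries were thus below all 3 KO-Veh libraries, with means of 155 ± 31.7 and 234 ± 35.0 CPM (SD, n = 3). The log2 fold change was -0.60 ± 0.15 (SE; edgeR quasi-likelihood test, unadjusted *P* = 0.00246, Benjamini-Hochberg adjusted *P* = 0.22). *Nptx2*, the other secreted or synaptic effector followed in every library, was at 22.9, 22.4 and 27.4 CPM in KO-Veh and at 23.2, 26.6 and 17.6 CPM in KO-Nut3, and its groups overlapped.

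Of the AP-1 genes and their relatives, 7 of 8 were lower. *Junb* (ENSMUSG00000052837, chr8:84974484-84978718) was at 86.9, 87.3 and 107 CPM in KO-Veh and at 63.2, 77.4 and 59.0 CPM in KO-Nut3, without overlap. Its log2 fold change of -0.50 ± 0.12 had the smallest adjusted *P* of the 39 genes (SE; edgeR, adjusted *P* = 0.185). *Fosl2*, which encodes FRA-2, was at 86.2, 87.0 and 88.6 CPM in KO-Veh and at 48.9, 82.9 and 64.0 CPM in KO-Nut3, the lowest of which was RH6. *Fosb* had the largest difference of this family, at 13.8, 14.997 and 21.99 CPM in KO-Veh and 8.65, 15.9 and 6.26 CPM in KO-Nut3, with overlap through RH8 (log2 fold change -0.73 ± 0.30, SE; edgeR, unadjusted *P* = 0.0384, adjusted *P* = 0.624). *Jun*, *Jund* and *Atf3* had log2 fold changes of -0.21, -0.04 and -0.30 and *Maff*, the 1 higher gene, of 0.06, none with an unadjusted *P* under 0.05. *Fos* itself (ENSMUSG00000021250, chr12:85473890-85477273) was at 19.4, 19.96 and 32.1 CPM in KO-Veh and at 21.9, 20.05 and 8.51 CPM in KO-Nut3. Only RH13 was below all KO-Veh libraries, and the log2 fold change of *Fos* was -0.50 ± 0.31 (SE; edgeR, unadjusted *P* = 0.14, adjusted *P* = 0.752), and -0.18 without RH13.

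All 4 EGR genes were lower, each with an unadjusted *P* under 0.05. *Egr1*, a factor of synaptic plasticity also known as ZIF268, was at 147, 165 and 199 CPM in KO-Veh and at 146, 149 and 101 CPM in KO-Nut3, and 1 of the KO-Nut3 libraries lay within the KO-Veh range. Its log2 fold change was -0.37 ± 0.15 (SE; edgeR, adjusted *P* = 0.618), and -0.20 without RH13. *Egr3* did not overlap, with 128, 127 and 158 CPM against 91.0, 119 and 118 CPM. *Egr2* had the largest difference of the 39 genes, a log2 fold change of -0.96 ± 0.40 (SE; edgeR, adjusted *P* = 0.626), but at 1.70 to 8.60 CPM in these groups and with overlap, and it was -0.40 without KO-Veh RH16. *Egr4* was at 45.8, 41.5 and 70.8 CPM in KO-Veh and at 31.1, 46.2 and 33.005 CPM in KO-Nut3.

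The 3 NR4A orphan nuclear receptors were lower as well. *Nr4a1*, also known as NUR77 (ENSMUSG00000023034, chr15:101254269-101274795), was at 104, 103 and 122 CPM in KO-Veh and at 86.2, 96.6 and 67.3 CPM in KO-Nut3, without overlap (log2 fold change -0.40 ± 0.12, SE; edgeR, adjusted *P* = 0.395). *Nr4a2* and *Nr4a3* had log2 fold changes of -0.28 and -0.37 and unadjusted *P* values above 0.05. In *Nr4a3* the value of RH6, 66.4 CPM, was the lowest of the 12 libraries, and the other 11 lay between 111 and 136 CPM.

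Among the other transcriptional regulators 6 of 6 were lower, and *Npas4* stood out in size. *Npas4* (ENSMUSG00000045903, chr19:4984355-4990316) was at 14.2, 21.8 and 30.02 CPM in KO-Veh and at 13.9, 13.7 and 7.80 CPM in KO-Nut3. The groups did not overlap, but the highest KO-Nut3 library and the lowest KO-Veh library were separated by less than the spread within either group. The log2 fold change was -0.90 ± 0.28 (SE; edgeR, unadjusted *P* = 0.00918, adjusted *P* = 0.392). *Klf4*, *Csrnp1*, *Ier2*, *Ier5* and the antiproliferative gene *Btg2* had log2 fold changes between -0.30 and -0.05, none with an unadjusted *P* under 0.05.

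The phosphatases that switch off MAP kinases were lower in 4 of 4. *Dusp1*, which encodes MKP-1, was at 25.9, 29.7 and 28.7 CPM in KO-Veh and at 23.5, 21.02 and 17.4 CPM in KO-Nut3, without overlap (log2 fold change -0.45 ± 0.12, SE; edgeR, adjusted *P* = 0.267). *Dusp5* had a log2 fold change of -0.36 ± 0.14 and *Dusp6* of -0.26 ± 0.14 (SE). Of the 7 other signalling and stress genes, 6 were lower and *Ier3* was higher with 0.13, with a median of -0.15, and the synaptic effectors *Homer1*, whose short activity-induced form could not be separated from the long forms in gene counts, and *Ptgs2* had -0.27 and -0.20. The 3 genes of secretory granules had values of both signs, *Vgf* with -0.16, *Pcsk1* with 0.03 and *Scg2* with 0.16, and *Scg2* was highest in RH6 at 209.5 CPM. The 4 higher members were thus *Maff*, *Ier3*, *Pcsk1* and *Scg2*.

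The count of called members depended on the fit. Without KO-Nut3 RH8, the KO-Nut3 library with the highest mean level of the 39 genes, *Arc*, *Fosb*, *Fosl2* and *Junb* passed the threshold, among 266 genes or 1.18% of all, the median of the 39 was -0.40 and 19 had an unadjusted *P* under 0.05. Without filtering low counts 10 members did, among 544 of 35930 genes or 1.51%, so that both fits called more genes over the whole table than the 45 above. Without KO-Nut3 RH6, which stood apart in its markers, 36 of 39 were lower with a median of -0.19, and without KO-Veh RH16 the median was -0.16 and the number with an unadjusted *P* under 0.05 dropped from 12 to 3. Both marker scores entered fits of all 12 libraries. Without a score such a fit gave 35 of 39 lower, a median of -0.26 and 10 with an unadjusted *P* under 0.05. When the choroid plexus score entered it, 34 of 39 were lower and the median was -0.21, but 0 had an unadjusted *P* under 0.05. This score, a mean log2 CPM, was 0.18, 0.21 and 0.92 in KO-Veh and 5.72, 2.73 and 6.00 in KO-Nut3. Score and treatment can therefore hardly be told apart in KO mice. With the neuron score instead, which was added after the values were seen, 38 of 39 were lower, the median was -0.28 and 14 had an unadjusted *P* under 0.05. Within KO-Nut3, RH8, the library with the least *Ttr*, had the highest *Arc*, 187 CPM, and a mean of the 39 centred levels of 0.12, while RH6 and RH13 had *Arc* at 155 and 123 CPM and means of -0.12 and -0.29. WT-Nut3 RH9, with *Ttr* at 4215 CPM, had *Arc* at 163 CPM and a mean of 0.03, while the other libraries of its group had *Arc* at 158 and 184 CPM and means of -0.05 and 0.02. Whether the level of *Ttr* and those of the members are related within a group was not tested. Of the log2 fold changes of 14 named genes, refitted without each library in turn, 9 moved by over 1.5 times, and those of *Arc*, *Junb*, *Npas4*, *Dusp1* and *Dusp5* did not. Split by animal number, 26 members were lower with a median difference of -0.07 up to RH8, and 37 with a median of -0.46 from RH9 on, with 1 or 2 libraries a side and no test.

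KO against WT after vehicle gave mostly higher values. Of the 39 genes 34 were higher in KO-Veh, and their median log2 fold change was 0.21 against 0.00 over all genes, of which 48.9% were higher. The comparison shares the KO-Veh libraries with the one above, so a high KO-Veh library moves both. In edgeR 0 members passed, as 0.0177% of all genes did, and DESeq2 and limma-voom called 0 as well, among 22 genes (0.0974%) and 3 genes (0.0133%). Without filtering low counts 12 members passed, among 272 genes or 0.757% of those tested. The number with an unadjusted *P* under 0.05 was 7, all higher, against 7.20% of all genes. This number was 3 with DESeq2 or with the choroid plexus score in the fit, and 2 in the fit of all 12 libraries. It was 9 with limma-voom and 18 without filtering low counts. In 3 members, *Dusp6*, *Fosl2* and *Ier5*, the KO-Veh libraries lay entirely above the WT-Veh libraries, against 5.90% of all genes, and in 0 entirely below, against 6.46%. Cell type markers stood on one side here too, with lower values in 8 of 9 markers of fibroblasts with a median of -0.59, 7 of 7 of mural cells with -0.30, 6 of 7 of endothelium with -0.24, 6 of 7 of cortex with -0.19 and 7 of 7 of neurons with -0.04. Higher values were found in 7 of 7 markers of oligodendrocytes with a median of 0.11 and 7 of 8 of inhibitory neurons with 0.11, and the CA pyramidal marker *Wfs1* was the single marker past the threshold in edgeR, lower in KO-Veh.

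WT-Veh had the largest SD of the 4 groups in 15 of the 39 members and the smallest in 7, and its spread was wide in several of the best known genes. *Arc* was at 91.7, 153 and 207 CPM in WT-Veh and at 201, 232 and 270.5 CPM in KO-Veh (log2 fold change 0.64 ± 0.20, SE; edgeR, unadjusted *P* = 0.00698, adjusted *P* = 0.608). *Fos* was at 5.91, 13.3 and 25.6 CPM in WT-Veh and *Egr1* at 80.6, 124 and 194 CPM, so that a single group covered most of the range of all 12 libraries. *Npas4* was at 11.05, 10.2 and 25.2 CPM and *Nr4a1* at 60.7, 93.8 and 110 CPM in WT-Veh, overlapping KO-Veh in both. *Nptx2* was at 24.2, 20.5 and 23.3 CPM in WT-Veh and overlapped KO-Veh too.

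In the 3 members without overlap the nearest libraries of the groups were close. *Dusp6*, the phosphatase of ERK, was at 48.5, 47.3 and 59.5 CPM in WT-Veh and at 59.8, 66.6 and 66.2 CPM in KO-Veh, so that WT-Veh RH15 and KO-Veh RH7 were nearly level (log2 fold change 0.31 ± 0.09, SE; edgeR, adjusted *P* = 0.599). *Fosl2* was at 62.9, 72.5 and 82.0 CPM in WT-Veh and at 86.2 to 88.6 CPM in KO-Veh (log2 fold change 0.27 ± 0.08, SE; edgeR, adjusted *P* = 0.608). *Ier5* was at 47.2, 43.4 and 46.5 CPM against 50.6, 49.8 and 47.5 CPM (log2 fold change 0.11 ± 0.06, SE; edgeR, adjusted *P* = 0.761). *Klf4*, a zinc-finger factor, had 0.80 ± 0.27 and *Sik1*, a kinase that restrains CREB coactivators, 0.52 ± 0.21 (SE), both with overlap. *Junb* with 0.31 ± 0.14 and *Homer1* with 0.24 ± 0.10 (SE) overlapped as well, and together with *Arc*, *Dusp6* and *Fosl2* these 4 were the 7 members with an unadjusted *P* under 0.05. Split by animal number, 35 members were higher with a median difference of 0.26 up to RH8, and 25 with a median of 0.03 from RH9 on. Leaving out WT-Veh RH2 gave a median of 0.11 and 8 members lower, leaving out KO-Veh RH16 a median of 0.13 and 3 members with an unadjusted *P* under 0.05, and leaving out WT-Veh RH15 raised the median to 0.30 and that number to 20, while 0 members passed the threshold in any of these. Of the log2 fold changes of 13 genes refitted in this way 12 moved by over 1.5 times, all but *Dusp6*. *Arc* was at 0.38, *Junb* at 0.14 and *Sik1* at 0.25 without RH2, and *Klf4* was at 0.50 and *Homer1* at 0.13 without RH16.

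Nutlin-3 against vehicle in WT mice gave small differences in both directions. Of the 39 genes 25 were higher and 14 lower after Nutlin-3, their median log2 fold change was 0.05, and 0 members had an unadjusted *P* under 0.05, which 3.17% of all genes had. Both rested on single libraries, since without WT-Veh RH15 31 members were higher with a median of 0.16 and 10 at an unadjusted *P* under 0.05, and without WT-Veh RH2 22 were lower with a median of -0.07. No gene passed the adjusted threshold in edgeR (0%), and DESeq2 and limma-voom called 0 genes. The direction differed with animal number, since up to RH8 25 members were higher with a median difference of 0.21, and from RH9 on 30 were lower with a median of -0.18, with 1 or 2 libraries a side and no test. The WT-Nut3 libraries lay close together, with *Arc* at 158, 163 and 184 CPM, *Fos* at 18.005, 16.4 and 19.0 CPM, *Egr1* at 140, 142 and 168 CPM and *Nr4a1* at 96.9, 82.5 and 95.7 CPM. All of these lay within the range of WT-Veh. *Npas4* at 16.5, 15.5 and 23.7 CPM did so too, and *Nptx2* at 21.8, 27.2 and 21.1 CPM exceeded it in 1 library. *Ier2* was the single member entirely higher, with 9.33, 8.64 and 8.86 CPM against 4.96, 7.72 and 8.03 CPM (log2 fold change 0.37 ± 0.18, SE; edgeR, adjusted *P* = 0.998), and *Jund* the single member entirely lower (-0.10 ± 0.08, SE; edgeR, adjusted *P* = 0.998), against 3.60% and 3.92% of all genes. Cell type markers leaned in WT too. Higher were 15 of 15 of choroid plexus with a median of 4.57 and 7 of 7 of oligodendrocytes with 0.26. The choroid plexus sum was 6694 CPM in RH9 and 205 and 223 CPM in RH1 and RH14. Lower were 9 of 9 of fibroblasts with a median of -0.71, 6 of 7 of endothelium with -0.15 and 6 of 7 of neurons with -0.03.

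Between the treated groups, KO-Nut3 was lower than WT-Nut3 in 29 of 39 members, with a median of -0.14. The size rested on single libraries, since the median was -0.03 with 23 lower without RH13, -0.09 without RH6 and -0.22 without RH8, and -0.06 with the choroid plexus score in the fit. In edgeR 0 members passed, against 0.00443% of all genes, DESeq2 and limma-voom called 0 members among 7 genes (0.031%) and 1 gene (0.00443%), and 4 members had an unadjusted *P* under 0.05, 3 lower and 1 higher, against 4.87%. That number was 11 without RH8, and 1 without RH1, without RH14 or with the choroid plexus score. The fits with a score used all 12 libraries, and without a score such a fit gave 3 and a median of -0.13. *Npas4* at 13.9, 13.7 and 7.80 CPM lay below the WT-Nut3 libraries (log2 fold change -0.66 ± 0.24, SE; edgeR, adjusted *P* = 0.928), and *Egr3* at 91.0, 119 and 118 CPM below 126, 128 and 135 CPM (-0.25 ± 0.10, SE; edgeR, adjusted *P* = 0.928). *Junb* had a lower mean with overlap (-0.26 ± 0.10, SE; edgeR, adjusted *P* = 0.928). The higher one was the rare gene *Maff*, with the largest difference in either direction, at 1.07, 0.845 and 1.46 CPM in WT-Nut3 and 2.44, 2.41 and 1.37 CPM in KO-Nut3 (0.88 ± 0.33, SE; edgeR, adjusted *P* = 0.928). *Npas4* and *Egr3*, the 2 members entirely lower, compare with 5.35% of all genes entirely lower. Refitted without each library in turn, 2 of the 5 genes named for this comparison moved by over 1.5 times. Over all alternatives the value nearest 0 was -0.43 for *Npas4* and -0.13 for *Egr3*. *Rgs2* was the single member entirely higher, by 0.08 ± 0.07 on the log2 scale (SE; edgeR, adjusted *P* = 0.935), against 5.30% of all genes. Neuron markers were lower beside them. All 10 markers of CA pyramidal neurons were lower with a median of -0.28, further from 0 than that of the members, all 7 markers of neurons with a median of -0.10, and 7 of 10 markers of dentate granule neurons with a median of -0.15. Higher were 9 of 9 markers of fibroblasts with a median of 1.39, 15 of 15 of choroid plexus with 0.89, 6 of 6 of thalamus with 0.49 and 5 of 5 of blood with 0.29. None of these markers passed the threshold in edgeR, and with the neuron score in the fit 32 members were lower with a median of -0.14.

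**Figure D4:**
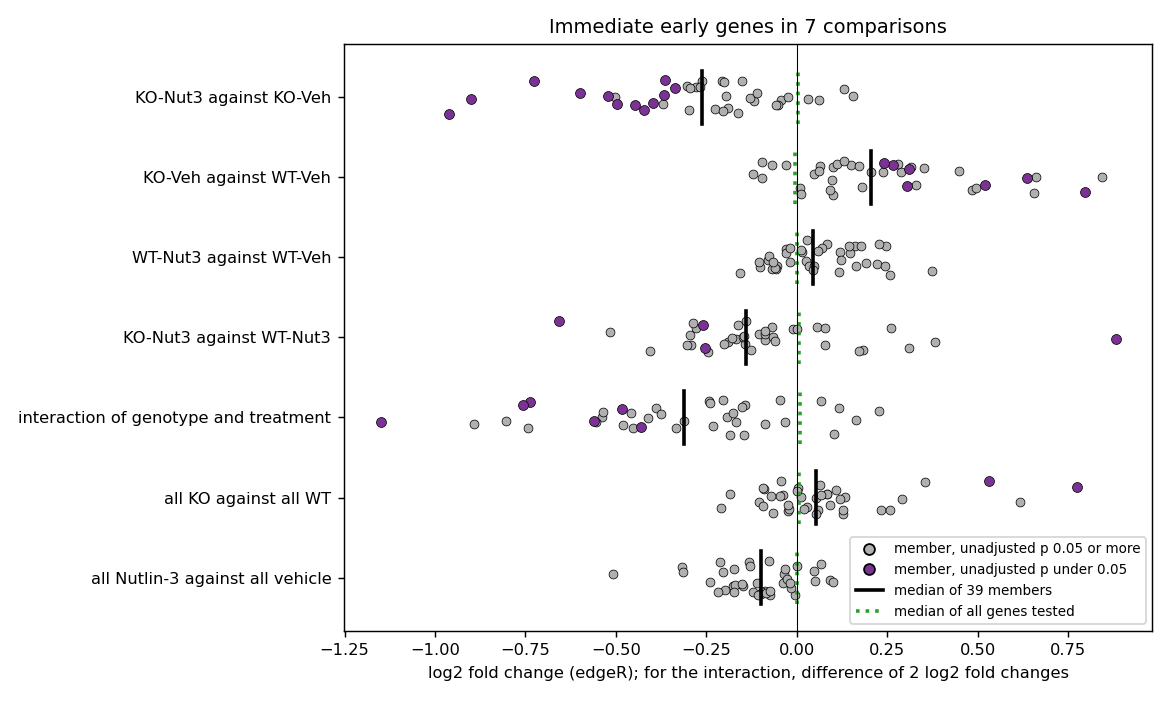
Log2 fold change of the 39 immediate early genes in 7 comparisons, with the median of the members (black) and of all genes tested (dotted green). The median was -0.26 for KO-Nut3 against KO-Veh, 0.21 for KO-Veh against WT-Veh and 0.05 for WT-Nut3 against WT-Veh; filled purple points have an unadjusted *P* under 0.05 all from edgeR with the filter on low counts, where no member passed an adjusted *P* under 0.05.

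Whether the treatment effect differed between genotypes was tested with an interaction term over all 12 libraries. The term was below 0 for 34 of 39 members, with a median of -0.31, which means that the Nutlin-3 effect was lower in KO than in WT. In the same term 8 of 9 fibroblast markers were higher with a median of 2.10, 7 of 7 of mural cells with 0.49, 6 of 6 of thalamus with 0.48 and 6 of 7 of endothelium with 0.38, and 7 of 7 neuron markers were lower with a median of -0.07 and 8 of 10 of CA pyramidal neurons with -0.19, with 0 past the threshold in edgeR. Over all genes tested, 0 members and 0 genes (0%) passed in edgeR, DESeq2 and limma-voom called 0 members among 1 gene (0.00443%) and 0 genes (0%), and 6 members had an unadjusted *P* under 0.05, against 4.17% of all genes. The 3 smallest unadjusted *P* values were those of *Junb* (interaction -0.56 ± 0.21 on the log2 scale, SE; edgeR, unadjusted *P* = 0.0183), *Arc* (-0.76 ± 0.31; edgeR, unadjusted *P* = 0.0265) and *Npas4* (-1.15 ± 0.48; edgeR, unadjusted *P* = 0.0307), all with an adjusted *P* of 0.994. The other 3 were *Egr4* with -0.74 ± 0.33, *Dusp6* with -0.48 ± 0.21 and *Fosl2* with -0.43 ± 0.20 (SE). Without filtering low counts 12 members passed, among 291 genes or 0.81% of those tested. Without KO-Veh RH16 no member had an unadjusted *P* under 0.05 in this term and the median was -0.22, without WT-Veh RH15 the number was 15 and the median -0.41, and without KO-Nut3 RH8 13 and -0.38. Without KO-Nut3 RH6 the median was -0.20.

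Over both treatments, KO against WT gave 25 members higher, a median of 0.05, and 2 with an unadjusted *P* under 0.05, *Maff* and *Klf4*, against 8.16% of all genes. In edgeR 0 passed the adjusted threshold, which 0.00443% of all genes did, and without filtering low counts *Klf4* alone passed, among 239 genes or 0.665%. The direction turned with single libraries, since the median was -0.02 with 22 members lower without WT-Veh RH2 and -0.01 with 21 lower without KO-Veh RH16. Cell type markers leaned here as well. Lower were 9 of 10 of CA pyramidal neurons with a median of -0.15 and 7 of 7 of neurons with -0.06. Higher were 15 of 15 of choroid plexus with a median of 0.76 and 9 of 9 of fibroblasts with 0.41. Over both genotypes, Nutlin-3 went with lower values in 33 members, a median of -0.10, with 0 at an unadjusted *P* under 0.05 against 7.29% of all genes, and 0 past the adjusted threshold (0% of all genes). With the choroid plexus score in the fit 23 members were lower with a median of -0.03, and without WT-Veh RH2 36 were lower with a median of -0.16 and 10 at an unadjusted *P* under 0.05. DESeq2 and limma-voom called 0 members in both, among 43 genes (0.19%) and 2 genes (0.00885%) for genotype and 79 genes (0.35%) and 0 genes (0%) for treatment. For treatment, markers of choroid plexus were higher in 15 of 15 with a median of 4.84 and of oligodendrocytes in 7 of 7 with 0.23. Mural cell markers were higher in 7 of 7 with a median of 0.22. Lower were 8 of 10 of CA pyramidal neurons with a median of -0.07 and 7 of 7 of microglia with -0.09.

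Other genes of the pathway were described from lists. One list of 27 further activity-regulated genes, with *Bdnf*, the neurotrophin, the clock gene *Per1* and the activin subunit *Inhba*, had 17 lower members and a median of -0.05 in KO-Nut3 against KO-Veh, and 23 higher members and a median of 0.13 in KO-Veh against WT-Veh. None of the 27 passed the threshold in any of the 7 comparisons in edgeR, and at an unadjusted *P* under 0.05 the counts were 0 and 4 in these comparisons, against 7.60% and 7.20% of all genes. In KO-Nut3 against WT-Nut3, where 29 of the 39 members were lower, 16 of the 27 were higher with a median of 0.02. In all KO against all WT 19 were higher with a median of 0.07, and 6 had an unadjusted *P* under 0.05, against 8.16% of all genes. For the interaction 21 were lower with a median of -0.10. *Bdnf* was at 47.6 ± 5.57 CPM in KO-Veh and 43.9 ± 7.40 CPM in KO-Nut3 (SD, n = 3). A list of 33 upstream regulators, the kinases, channels, coactivators and transcription factors that carry the signal from the synapse to the promoter, had 30 lower members and a median of -0.10 in KO-Nut3 against KO-Veh, and 30 lower members and a median of -0.12 in KO-Nut3 against WT-Nut3, with 0 past the threshold in edgeR and 2 and 4 with an unadjusted *P* under 0.05, against 7.60% and 4.87% of all genes. The summed level of these 33 genes was lowest in RH6, at 10254 CPM against 13097 to 15169 CPM in the other libraries, and highest in WT-Veh RH2. *Srf* was at 68.0 ± 1.75 CPM in KO-Veh and 62.3 ± 4.998 CPM in KO-Nut3, and *Creb1* at 65.9 ± 1.58 and 65.2 ± 2.01 CPM (SD, n = 3). WT-Veh RH2, the lowest library in *Fos*, *Egr1*, *Nr4a1* and *Arc*, was thus the highest in the sum of the genes upstream of them and in those of the pan-neuronal, CA pyramidal and dentate granule markers, and the lowest in that of the inhibitory neuron markers. The upstream and the pan-neuronal sums share *Camk2a*, their most abundant gene.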

How the data were processed

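Poly(A) RNA of the hippocampus of 12 mice was sequenced. According to the methods, the authors mapped the reads to mm10 with STAR. The deposited values used here are raw counts of reads per gene as STAR writes them, read from the files as whole numbers with no normalization. For their own tests the authors scaled the counts with DESeq2. The labels give single reads on an older instrument and the methods paired-end reads on a NovaSeq. The counts over both strands were used, and a read that overlapped more than 1 gene (4.95% to 5.32% of the reads) counted on none. Reads not counted on a gene, 21.2% to 22.6%, stayed out of the library sizes. A table of the whole series was not used here.

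Gene names and exonic lengths came from GENCODE M21 (GRCm38). Genes whose 12 libraries summed to more than 20 counts entered the quasi-likelihood test of edgeR 4.0.16 (R 4.3.3) with TMM factors, two-sided, with Benjamini-Hochberg adjustment over all 22592 genes and 0.05 as the threshold. Pairs of groups were fitted on their own 6 libraries and the interaction and the pooled comparisons on all 12. With a choroid plexus or neuron score as covariate, pairs of groups were fitted on all 12 libraries as well. The SE was taken as the log2 fold change over the square root of *F*. Log2 CPM used a prior count of 1. Correlations were tested with 100000 permutations. The fits were tested on simulated data. Nothing says whether animals of a group shared a litter or a day, and *P* values measure the spread between these animals.

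All members entered the counts and medians. Full statistics were given for members past the threshold or, up to 3 per direction and comparison, the largest among members with a mean of at least 50 counts and no overlap between groups. *Arc*, *Fos*, *Egr1*, *Npas4*, *Nr4a1* and *Nptx2* were given in every library, and members with an unadjusted *P* under 0.05 were named after their values were seen. The members and lists were chosen with earlier results of these data known. Alternatives were DESeq2 1.42.0, limma-voom (limma 3.58.1), DESeq2 size factors, filterByExpr, no filter on low counts, all 12 libraries, a block of animal numbers (RH8 and below, RH9 and above), a choroid plexus score as covariate, and the removal of single libraries; a neuron score was added after the values were seen.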

Additional observations from a re-analysis of the deposited data

How the results depend on the processing

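Over 120 alternative fits of the count of members past the threshold in the 7 comparisons, 114 gave 0 members as the reported fits did. In KO-Nut3 against KO-Veh the count was 2 with DESeq2, among 245 genes, and 10 without a filter on low counts, among 544, where the reported fit called 45, and leaving out 1 library in turn gave 0 to 4, with 4 only without KO-Nut3 RH8, among 266 genes. Without a filter the count was 12 in KO-Veh against WT-Veh, 12 for the interaction and 1, *Klf4*, in all KO against all WT. That setting tests 35930 genes and called 272, 291 and 239 of all in these 3 comparisons, against 4, 0 and 1 in the reported fits, and 249, 38 and 539 in the other 3, with 0 members there, and the cause was not tested. The other settings gave 0 members in every comparison. Of 750 refitted log2 fold changes of the genes named, 749 kept their sign; *Nptx2* in KO-Nut3 against KO-Veh ranged from -0.25 to 0.041 over the libraries left out, with the positive value without RH13. The number of members with an unadjusted *P* under 0.05 depended on single libraries throughout, from 3 to 19 in KO-Nut3 against KO-Veh, from 3 to 20 in KO-Veh against WT-Veh, from 0 to 10 in WT-Nut3 against WT-Veh, from 1 to 11 in KO-Nut3 against WT-Nut3, from 0 to 15 for the interaction, from 1 to 6 for all KO against all WT and from 0 to 10 for all Nutlin-3 against all vehicle. In WT-Nut3 against WT-Veh the median of the members ranged from -0.07 without WT-Veh RH2 to 0.16 without WT-Veh RH15, in KO-Nut3 against WT-Nut3 from -0.22 to -0.03, for the interaction from -0.41 to -0.20 and in all KO against all WT from -0.02 to 0.09. No paired analysis was possible because no animal number occurs in more than 1 group. *Arc* had 1536 to 4748 counts per library, and *Atf3* and *Maff* had 10 and 9 in their lowest; what depth contributes to the counts of calls was not tested.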

Other observations

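Genes induced by glucocorticoids also varied between animals. The summed level of 17 such genes, with *Klf9*, a zinc-finger factor, as the most abundant, was lowest in WT-Veh RH2 with 706 CPM, WT-Nut3 RH1 with 725 CPM and WT-Veh RH5 with 784 CPM, and highest in WT-Veh RH15 with 1035 CPM. The other 8 libraries lay between 870.3 and 965 CPM. In KO-Veh against WT-Veh 15 of the 17 were higher with a median log2 fold change of 0.18, and 0 passed the threshold in edgeR, with 4 at an unadjusted *P* under 0.05, *Ddit4*, *Map3k6*, *Pdk4* and *Sgk1*, against 7.20% of all genes. WT-Veh RH2 and RH15 were thus the lowest and the highest library of the 12 in this list and the lowest and the second highest in the mean level of the immediate early genes. Whether this list and the immediate early genes are related over the 12 libraries is not reported here.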
